A study of Mus musculus with 59 samples.

Results

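The 8 genes described here handle lactate, pyruvate, ketone bodies and glucose in the brain, and were chosen by symbol from the 18088 genes of the deposited table, with the knowledge that Slc16a1 was lower with both drugs. They are the monocarboxylate transporter genes Slc16a1 (MCT1), Slc16a7 (MCT2) and Slc16a3 (MCT4), the gene of the transporter partner basigin (Bsg), the glucose transporter genes Slc2a1 (GLUT1) and Slc2a3 (GLUT3), and the lactate dehydrogenase genes Ldha and Ldhb. All 8 were measured, and all 8 passed the filter on low values. The differences between each drug and vehicle were known when the genes were chosen, so those differences are given as a description with no test.

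Monocarboxylate transporters carry lactate, pyruvate and ketone bodies across cell membranes together with a proton, and in the suckling and newly weaned brain ketone bodies and lactate are fuels beside glucose. In brain, MCT1 is known from the endothelium of the blood vessels, astrocytes and oligodendrocytes, MCT2 from neurons and MCT4 from astrocytes. Basigin brings MCT1 and MCT4 to the cell surface, GLUT1 moves glucose over the blood-brain barrier, GLUT3 is the main glucose transporter of neurons, and lactate dehydrogenase, built from the A and B subunits, interconverts pyruvate and lactate.

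RNA of the prefrontal cortex was sequenced from C57BL/6J mice on postnatal day 25. The mice were wild type (WT) or heterozygous for Ash1l (HT), a histone methyltransferase gene, and had received fluoxetine, an inhibitor of serotonin reuptake, lithium, a mood stabiliser, or vehicle through the milk of the mother from postnatal day 3 to 24, over 3 weeks. Genotype, drug and sex made 12 groups of 5 libraries, except 4 in HT lithium females, and all groups shared the strain, the age and feeding by a dam that was given drug or vehicle. Drug doses, the kind of Ash1l allele, litters and dams were not labelled, so the p-values cover the spread of these libraries alone, and effects of dam and litter cannot be told apart from the drug.

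The libraries held from 24.47 M to 36.32 M recovered reads (median 27.98 M). Ash1l lay between 3641 and 4382 normalised read counts in the 29 HT libraries and between 4703 and 6218 in 29 of the 30 WT libraries. The remaining WT library, labelled replicate 3 of the vehicle females, had 3557, on the HT side. The differences of the 8 genes and the marker lists were also computed without it. Such values stand beside the results on Slc16a7, Slc16a3, Bsg, Ldha, the glucose transporters and the markers. Markers of cortical neurons were present in every library, with at least 28945 normalised read counts of Slc17a7, the vesicular glutamate transporter gene, and at least 1212 of Neurod6. Ttr, the defining marker of the choroid plexus, had a median of 22.3 and reached 7177 in that same replicate 3 of the WT vehicle females. The summed choroid plexus markers of this library were 7738, against 54.6 to 636 in the other 4 WT vehicle females. Its oligodendrocyte markers summed to 293127 against 111207 to 151493, and its cortical neuron markers to 221300 against 319568 to 354414. The cause was not tested.

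Per kilobase of annotated exon, the levels of the 8 genes in the 20 vehicle libraries ran from Ldhb at the top to Slc16a3 at the bottom. Ldhb had 7310 ± 460 normalised read counts per kilobase (SD, n = 20), Bsg 6213 ± 637 and Ldha 2585 ± 295. The glucose transporters followed, Slc2a1 with 1007 ± 159 per kilobase and Slc2a3 with 801 ± 74.3. Of the transporters of lactate, Slc16a1 had 432 ± 39.3 per kilobase, Slc16a7 186 ± 35.7 and Slc16a3 11.1 ± 2.39. The ranges of Ldhb and Bsg overlapped, as did those of Slc2a1 and Slc2a3, while Slc16a1, Slc16a7 and Slc16a3 did not overlap one another. Per kilobase, the B subunit gene outweighed the A subunit gene within each library. The ratio of Ldhb to Ldha per kilobase ran from 2.10 to 4.22 over all 59 libraries (median 2.80). The medians of this ratio were 2.79 in vehicle, 2.63 in fluoxetine and 2.89 in lithium libraries, with overlapping ranges. These levels and their order depend on the exon length used, the union of annotated exons, which was 3310 bases for Ldha and 1570 for Ldhb. Before division by length, the mean normalised read counts over the 59 libraries were 8908 for Ldha and 11836 for Ldhb. Those of Slc16a1 and Slc16a7 were 1602 and 2071, the reverse of their order per kilobase.

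**Figure D1:**
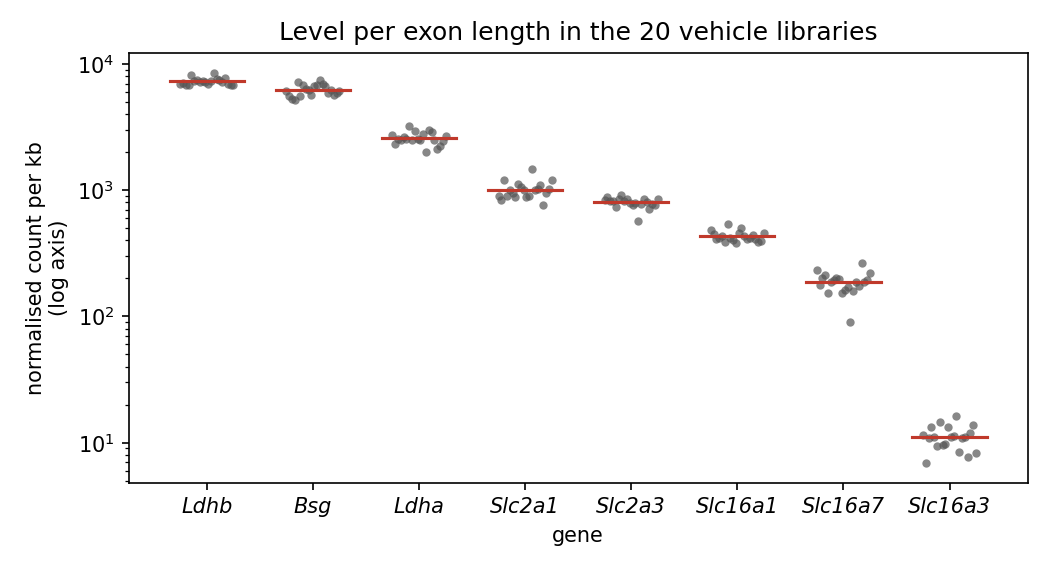
Normalised read count per kilobase of exon (log axis) of the 8 genes in the 20 vehicle libraries, with 1 point per library and a line at the mean. Ldhb and Bsg stood at the top with means of 7310 and 6213, and Slc16a3 at the bottom with 11.1.

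Slc16a1 (ENSMUSG00000032902) lies on chromosome 3, 104638668 to 104658462, plus strand (GRCm38), and 2 annotated genes lie within its introns on the same strand, neither of them in the table. The 250 bases before its RefSeq start (GRCm38.p6, chr3:104638414-104638663, plus strand) are shown because this is the member that was lower with both drugs. The same window is shown for Ldhb (chr6:142507958-142508207, minus strand), the member that differed between the drugs, and for its partner Ldha (chr7:46845554-46845803, plus strand), which has a second RefSeq window at chr7:46846832-46847081 that is not printed. Each is written 5′ to 3′, and capitals mark the motif ACGTG or the motif GCGTG on either strand, and the longer CACGTG, where CACGT is the first motif and CACGC the second read on the other strand, and each CACGTG holds the first on both strands.
Slc16a1: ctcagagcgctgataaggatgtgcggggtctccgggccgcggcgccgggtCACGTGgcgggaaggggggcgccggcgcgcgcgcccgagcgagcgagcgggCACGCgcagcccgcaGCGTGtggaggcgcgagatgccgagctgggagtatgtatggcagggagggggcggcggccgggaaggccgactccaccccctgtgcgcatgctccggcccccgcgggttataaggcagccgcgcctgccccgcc
Ldhb: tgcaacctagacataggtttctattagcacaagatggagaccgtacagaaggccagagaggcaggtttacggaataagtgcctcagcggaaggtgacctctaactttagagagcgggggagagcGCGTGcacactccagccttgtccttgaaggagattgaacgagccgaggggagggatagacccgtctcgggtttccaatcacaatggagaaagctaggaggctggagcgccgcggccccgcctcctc
Ldha: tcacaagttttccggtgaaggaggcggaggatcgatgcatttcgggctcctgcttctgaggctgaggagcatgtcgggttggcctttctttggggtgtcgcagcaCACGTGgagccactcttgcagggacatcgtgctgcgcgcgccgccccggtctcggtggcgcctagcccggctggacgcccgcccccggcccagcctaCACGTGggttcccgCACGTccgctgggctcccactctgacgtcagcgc
Both ACGTG and the variant GCGTG are the core of the element bound by hypoxia-inducible factors, and CACGTG is the E-box bound by many helix-loop-helix factors. With both strands counted, the Slc16a1 window held CACGTG 1 time, ACGTG 2 times and GCGTG 2 times, and the Ldhb window held GCGTG 1 time and neither of the others. The printed Ldha window held CACGTG 2 times, ACGTG 5 times and no GCGTG, while the second held GCGTG 1 time and neither of the others. Of 32851 windows of the same length, 16.6% held ACGTG, 28.2% GCGTG and 6.02% CACGTG. Such a match is a match of letters and was not tested for binding. RefSeq windows matched 5 of the 8 genes, and none was matched for Slc16a7, Bsg and Slc2a3. The windows of Slc2a1 and Slc16a3 are not printed. That of Slc2a1 held ACGTG 1 time and GCGTG 1 time, that of Slc16a3 held ACGTG 2 times and no GCGTG, and neither held CACGTG.

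Slc16a1 was lower with fluoxetine and with lithium in both genotypes and both sexes. In HT females given vehicle its normalised read count was 2129, 1981, 1832, 1842 and 1919, with fluoxetine 1514, 1590, 1717, 1462 and 1438, and with lithium 1503, 1438, 1199 and 1524. In HT males it was 1706, 2371, 1868, 1777 and 1705 with vehicle, 1473, 1449, 1343, 1321 and 1239 with fluoxetine, and 1234, 1278, 1447, 1248 and 1417 with lithium. In HT mice of either sex, each drug library lay below the lowest vehicle library of that sex. In WT females it was 2041, 2216, 1931, 1834 and 1849 with vehicle, 1362, 1299, 1298, 1166 and 1414 with fluoxetine, and 1588, 1492, 1483, 1296 and 1537 with lithium. In WT males it was 1949, 1830, 1723, 1761 and 2011 with vehicle, 1823, 1641, 1546, 1551 and 1238 with fluoxetine, and 1316, 1542, 1426, 1562 and 1814 with lithium. The ranges were apart in WT females too, and overlapped in WT males by 1 library of each drug. Against the vehicle mean of its own genotype and sex, Slc16a1 was lower in 20 of 20 fluoxetine and 19 of 19 lithium libraries.

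**Figure D2:**
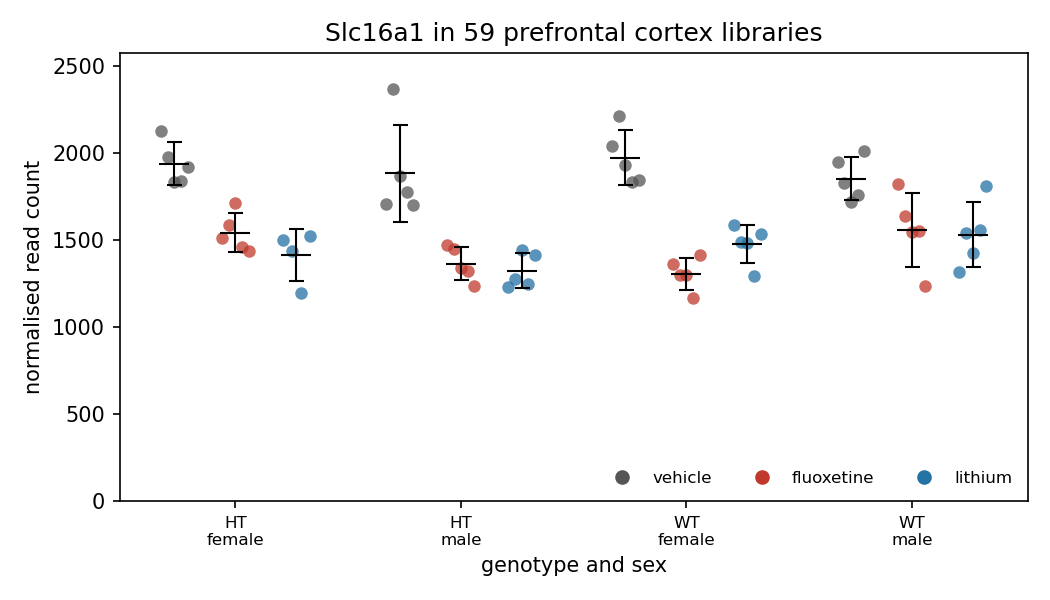
Normalised read count of Slc16a1 in the 59 libraries by genotype and sex, with 1 point per library and bars at the mean ± SD of each group. Vehicle libraries lay between 1705 and 2371, fluoxetine libraries between 1166 and 1823, and lithium libraries between 1199 and 1814.

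On average over the 4 strata of genotype and sex, the log2 difference of Slc16a1 from vehicle was -0.41 ± 0.042 (SE) with fluoxetine and -0.41 ± 0.043 with lithium, or -24.7% and -25.0% on the linear scale. With fluoxetine it was -0.33 in HT females, -0.46 in HT males, -0.59 in WT females and -0.26 in WT males (each ± 0.085). With lithium it was -0.46 ± 0.090, -0.50 ± 0.085, -0.42 ± 0.085 and -0.28 ± 0.085 in the same order. Both drugs were compared with the same vehicle libraries. In bulk tissue, fewer cells of a type that holds the message and less message per cell cannot be told apart. Without replicate 3 of the WT vehicle females and replicate 2 of the WT vehicle males, the averages were -0.41 and -0.42.

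The 12 group means of Slc16a1 ran from 1308 in WT fluoxetine females to 1974 in WT vehicle females. The 4 vehicle groups stood highest, from 1855 to 1974, and the 8 drug groups lay between 1308 and 1560. Of the 11 pairs of neighbours in this order, the step from WT vehicle males to WT fluoxetine males was the only one larger than the SD of either group, and no pair of neighbours had ranges apart. Slc16a1 did not differ detectably between fluoxetine and lithium, with a log2 difference of 0.0045 ± 0.043 (95% interval -0.08 to 0.09; limma, adjusted p = 0.96). It was known to be lower with both drugs in these same libraries when the genes were chosen. For Slc16a1 this comparison is therefore not independent of the choice, and no likeness of the drugs is concluded from it.

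Of the 8 genes, 1 was past the threshold of an adjusted p of 0.05 for fluoxetine against vehicle, which was Slc16a1, where 13.5% of all tested genes were. For lithium against vehicle 2 were, Slc16a1 and Ldhb, where 13.1% of all tested genes were. Since these contrasts were in view when the genes were chosen, the counts are a description. The median of the log2 differences of the 8 genes was -0.02 with fluoxetine and 0.06 with lithium, beside 0.0072 and 0.0039 over all tested genes.

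**Figure D3:**
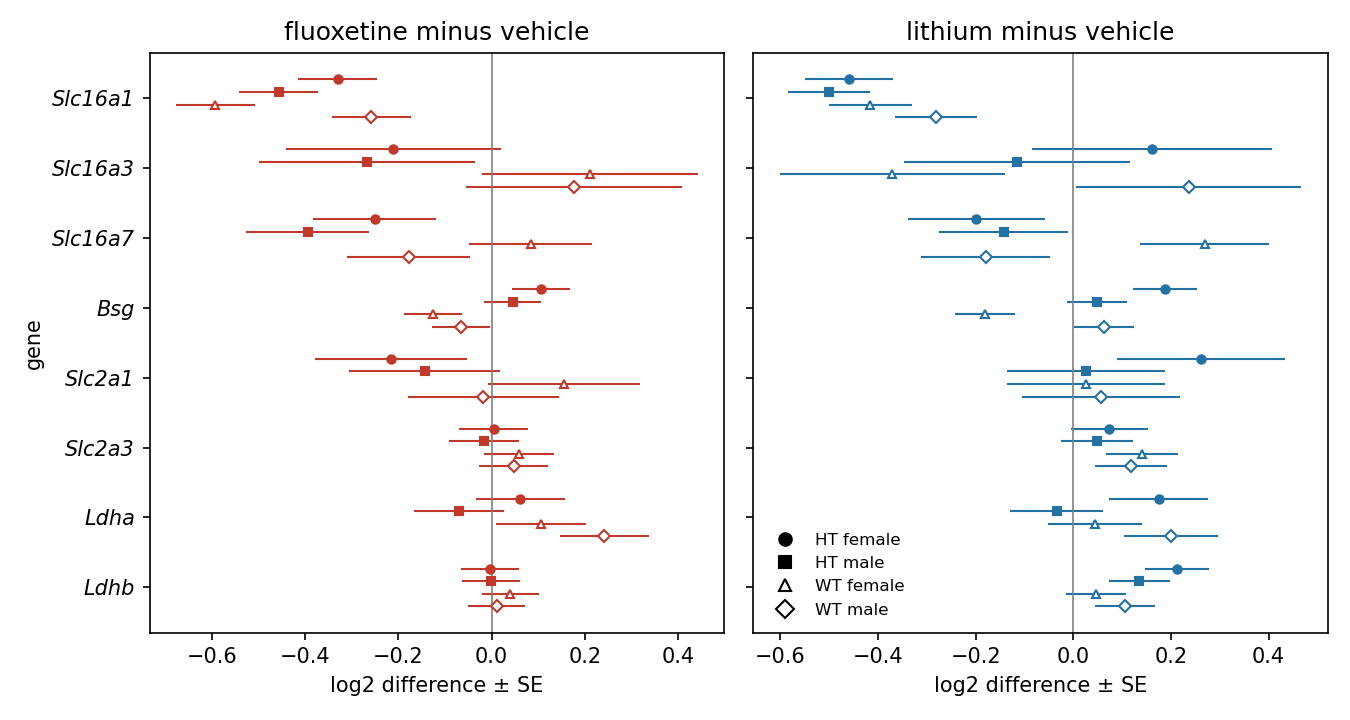
Log2 difference from vehicle (± SE) of the 8 genes with fluoxetine (left) and lithium (right) in each genotype and sex. The 4 values of Slc16a1 lay between -0.59 and -0.26 with fluoxetine and between -0.50 and -0.28 with lithium, and the values of the other genes lay closer to 0 or on both sides of it.

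For Slc16a7 and Slc16a3 the average differences from vehicle were closer to 0 than that of Slc16a1. Slc16a7 (ENSMUSG00000020102, chromosome 10, 125219270 to 125389465, minus strand) is overlapped on the opposite strand by 2 annotated genes that are not in the table. Its lowest, median and highest normalised read counts were 1073, 2223 and 3146 in the 20 vehicle libraries, 1382, 1932 and 2492 in the 20 fluoxetine libraries and 1640, 2049 and 2584 in the 19 lithium libraries, so the ranges overlapped. The log2 difference from vehicle was -0.19 ± 0.066 with fluoxetine and -0.06 ± 0.067 with lithium. With fluoxetine it was -0.39 in HT males, -0.25 in HT females, -0.18 in WT males and 0.08 in WT females (each ± 0.13), and with lithium -0.14, -0.20, -0.18 and 0.27 in the same order. The low end of the vehicle range was the library labelled replicate 3 of the WT vehicle females, with 1073 against 1873 to 2222 in the other 4 WT vehicle females. Without it the values in WT females were -0.10 ± 0.12 with fluoxetine, now below 0, and 0.09 ± 0.12 with lithium. The averages were then -0.23 ± 0.057 and -0.11 ± 0.058. Over the 11 alternatives the average of Slc16a7 with fluoxetine ran from -0.21 to -0.12. Slc16a7 was past the threshold under some of these alternatives and without some single libraries, though not in the main fit. Slc16a3 (ENSMUSG00000025161, chromosome 11, 120948480 to 120960868, plus strand) had the lowest counts of the 8 genes, with group means from 48.3 to 71.0. Its values ran from 36.7 to 86.7 in vehicle, 27.3 to 87.0 in fluoxetine and 34.2 to 88.6 in lithium libraries, and the log2 differences were -0.02 ± 0.12 with either drug (0.0093 and 0.0099 without replicate 3 of the WT vehicle females).

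Bsg (ENSMUSG00000023175, chromosome 10, 79704491 to 79711969, plus strand), whose product partners MCT1, stayed near its vehicle level on average while Slc16a1 was lower. Its lowest, median and highest normalised read counts were 9390, 11229 and 13632 with vehicle, 9676, 11194 and 12300 with fluoxetine, and 10790, 11398 and 12937 with lithium. The log2 difference from vehicle was -0.01 ± 0.031 with fluoxetine (95% interval -0.07 to 0.05) and 0.03 ± 0.031 with lithium (-0.03 to 0.09). These averages joined strata on both sides of vehicle. The ratio to vehicle with fluoxetine was 1.08 in HT females, 1.03 in HT males, 0.92 in WT females and 0.96 in WT males. With lithium it was 1.14, 1.03, 0.88 and 1.04 in the same order. The log2 effect in HT minus WT mice was 0.17 with fluoxetine and 0.18 with lithium, neither past the threshold. Without the WT vehicle female library whose Ash1l lay on the HT side, it was 0.16 with each drug.

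Averaged over the 4 strata of genotype and sex, with all libraries, the glucose transporter genes had log2 differences within 0.10 of 0 with either drug. Slc2a1 (ENSMUSG00000028645, chromosome 4, 119108711 to 119137983, plus strand), which 2 antisense genes and a microRNA gene overlap in the annotation, ran from 2655 to 5139 normalised read counts with vehicle, from 2482 to 4706 with fluoxetine and from 1964 to 4983 with lithium. Its log2 difference was -0.06 ± 0.081 with fluoxetine and 0.09 ± 0.082 with lithium, and -0.02 ± 0.079 and 0.12 ± 0.080 without the library labelled replicate 3 of the WT vehicle females. By stratum its ratio to vehicle ran from 0.86 in HT females to 1.11 in WT females with fluoxetine. With lithium it ran from 1.02 in HT males to 1.20 in HT females. In WT females the log2 differences were 0.16 with fluoxetine and 0.03 with lithium, and 0.28 and 0.15 without that library. In HT lithium males the coefficient of variation of Slc2a1 was 33.0% (4727, 4211, 4830, 2990 and 1964), and that of Slc16a3 was 37.9%. Slc2a3 (ENSMUSG00000003153, chromosome 6, 122727809 to 122801640, minus strand) ran from 4127 to 6620 with vehicle, from 5168 to 7344 with fluoxetine and from 5626 to 6733 with lithium. Its log2 difference was 0.02 ± 0.037 with fluoxetine and 0.10 ± 0.038 with lithium, and without the same library -0.00065 ± 0.032 and 0.07 ± 0.033. With lithium, 18 of 19 libraries lay above the vehicle mean of their genotype and sex. A processed pseudogene lies within Slc2a3, and near-identical pseudogene copies of it and of the lactate dehydrogenase genes could share reads with them.

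Of the lactate dehydrogenase genes, Ldhb (ENSMUSG00000030246, chromosome 6, 142490249 to 142507957, minus strand) was higher with lithium than with fluoxetine. In HT females its normalised read count was 10548, 10835, 10739, 11446 and 12833 with fluoxetine and 12156, 14672, 13663 and 11985 with lithium, beside 10989, 11088, 10767, 10762 and 12936 with vehicle. In HT males it was 12421, 10220, 12166, 11127 and 11760 with fluoxetine and 12511, 12265, 12888, 12897 and 12725 with lithium, beside 11557, 11828, 11311, 11601 and 11320 with vehicle. The HT lithium males stood above every HT vehicle male, and overlapped the HT fluoxetine males by 1 library. In WT females it was 12553, 13453, 12115, 12000 and 11036 with fluoxetine, 12138, 12890, 11804, 12933 and 11600 with lithium, and 10941, 11450, 13435, 12018 and 11650 with vehicle. In WT males it was 10818, 11585, 10593, 11432 and 11872 with fluoxetine, 12849, 11369, 11991, 11995 and 11912 with lithium, and 11272, 12133, 10888, 10791 and 10798 with vehicle. The mean was higher with lithium than with fluoxetine in all 4 strata, and the ranges overlapped in each. In WT females the means were nearly equal, at 12273.4 with lithium and 12231.5 with fluoxetine. The log2 difference of fluoxetine from lithium was -0.11 ± 0.031 (limma, adjusted p = 0.0096), and this was the 1 of the 8 genes past the threshold in that comparison, where 13.9% of all tested genes were and 7.74% were lower with fluoxetine. From vehicle, Ldhb differed by 0.01 ± 0.031 with fluoxetine and by 0.13 ± 0.031 with lithium, and 17 of 19 lithium libraries lay above the vehicle mean of their stratum.

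Ldha (ENSMUSG00000063229, chromosome 7, 46841475 to 46855627, plus strand) ran from 6705 to 10721 normalised read counts with vehicle, from 7227 to 10885 with fluoxetine and from 7611 to 10734 with lithium. Its log2 difference from vehicle was 0.08 ± 0.048 with fluoxetine and 0.10 ± 0.049 with lithium, and -0.01 ± 0.049 between fluoxetine and lithium (adjusted p = 0.91, limma). The library labelled replicate 3 of the WT vehicle females held the lowest value of Ldha among the 59, as it did of Slc16a7 and Slc2a3. Without it the average differences of Ldha from vehicle were 0.06 ± 0.045 with fluoxetine and 0.07 ± 0.046 with lithium. In WT females they went from 0.11 to 0.01 with fluoxetine and from 0.04 to -0.05 with lithium.

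**Figure D4:**
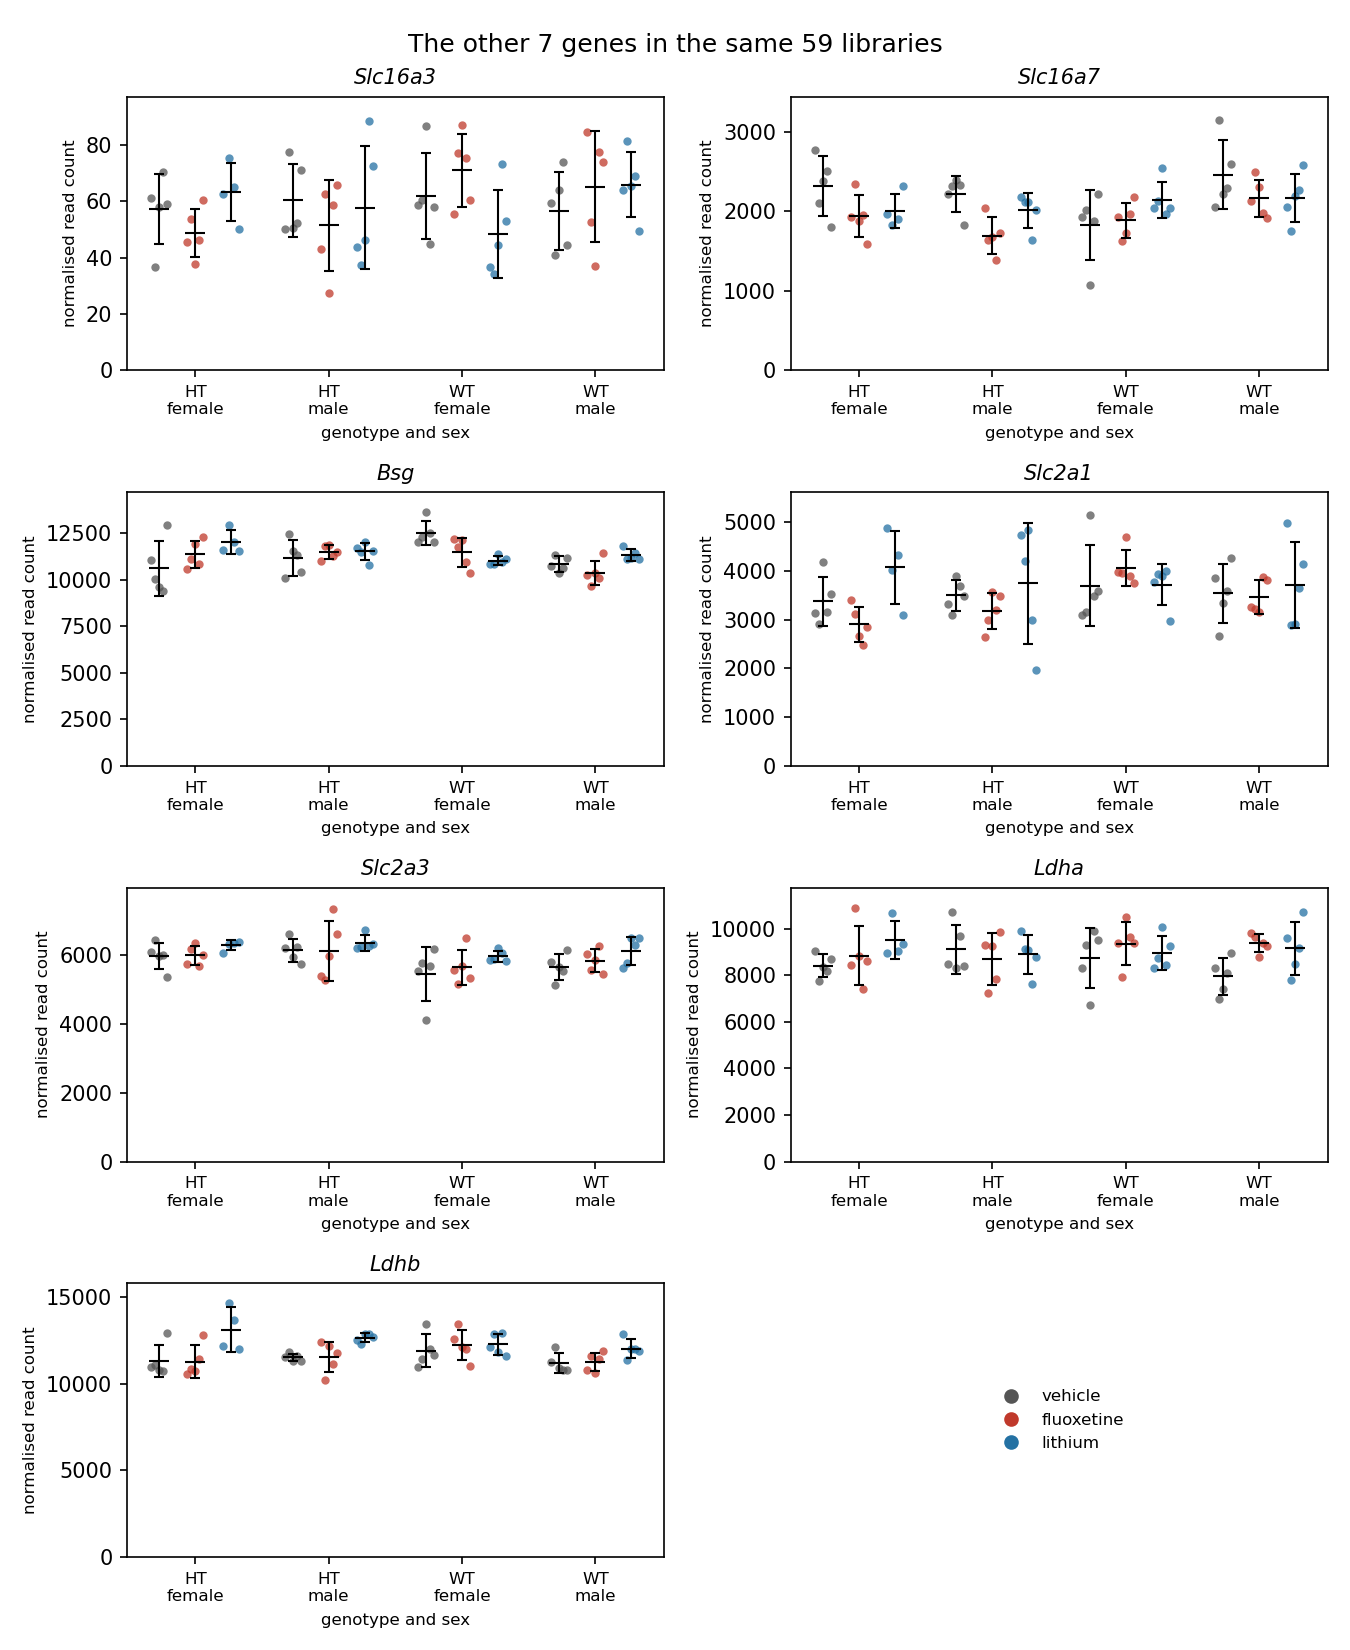
Normalised read count of the 7 other genes in the 59 libraries by genotype and sex, with 1 point per library and bars at the mean ± SD of each group. The ranges of vehicle, fluoxetine and lithium libraries overlapped for each gene when the strata were joined, and the values of Slc2a1 ran from 1964 to 4830 in HT lithium males.

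The genotype of the mice was compared within each drug and sex, and this comparison was not part of the choice of genes. In vehicle females Bsg was lower in HT than in WT mice. Its normalised read count was 11036, 10038, 9573, 9390 and 12945 in HT and 12039, 12290, 13632, 12516 and 12032 in WT vehicle females. In HT, 4 of 5 libraries lay below the lowest WT library, and the other was above 4 of the 5 WT libraries. The log2 difference was -0.25 ± 0.062 (limma, adjusted p = 0.014), and Bsg was the 1 of the 8 genes past the threshold, where 6.2% of all tested genes were. The call was lost without replicate 3 of the WT vehicle females and replicate 2 of the WT vehicle males (-0.22, adjusted p = 0.063), and with the trends in GC content and gene length removed (-0.11, adjusted p = 0.51). It was also lost in the fit to those groups alone (-0.25, adjusted p = 0.25) and without single libraries of these groups, namely WT replicate 3 (-0.22, adjusted p = 0.093), HT replicate 2 (-0.23, adjusted p = 0.057) and HT replicate 4 (-0.21, adjusted p = 0.088). Over the alternatives the adjusted p ran from 0.0042 to 0.51.

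Markers of other cells are described for the same vehicle females, where 6.2% of all tested genes were past the threshold. The summed normalised count of 12 oligodendrocyte markers ranged from 70884 to 152766 in HT and from 111207 to 293127 in WT vehicle females, with a median log2 difference of -0.47 and none past the threshold. Without WT replicate 3 the highest WT sum was 151493, and the median was -0.25. That of 22 endothelial markers ranged from 17890 to 22687 in HT and from 21071 to 29359 in WT, with a median of -0.19 and 2, Cldn5 and Egfl7, past the threshold and lower. Without WT replicate 3 the highest WT sum was 22838, the median was -0.12 and 0 were past the threshold. Of 10 pericyte and smooth muscle markers 1, Cspg4 (-0.55 ± 0.14), was past the threshold and lower, and 0 were without WT replicate 3. The part of these cells in the difference of Bsg was not tested.

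In the other comparisons of genotype no member was past the threshold. Averaged over the 6 strata of drug and sex, 0 of the 8 genes were (limma; edgeR and DESeq2 called 0 too), and 1, Slc2a3, had an unadjusted p under 0.05 (0.09 ± 0.031, adjusted p = 0.28), where 0.358% of all tested genes were past the threshold. Slc16a1 differed by -0.04 ± 0.035 on the log2 scale between HT and WT mice (95% interval -0.11 to 0.03, adjusted p = 0.87). In fluoxetine females 1.95% of all tested genes were past the threshold and 0 of the 8, with 3 at an unadjusted p under 0.05. There Slc2a1 was at 3394, 3125, 2672, 2482 and 2853 in HT and 3973, 3947, 4706, 3904 and 3747 in WT mice, without overlap, and the log2 difference was -0.49 ± 0.16 (limma, adjusted p = 0.10). In the same females the ranges of Slc16a1 did not overlap in the other direction, with 0.24 ± 0.085 (adjusted p = 0.12). In fluoxetine males 0.386% of all tested genes and 0 of the 8 were past it, with 3 at an unadjusted p under 0.05. In vehicle males, lithium females and lithium males 0.00559% of all tested genes were in each, and 0 of the 8, with 1, 0 and 1 at an unadjusted p under 0.05. In each of these 5 comparisons edgeR and DESeq2 called 0 of the 8 as well.

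No difference of a drug's effect by genotype or by sex passed the threshold for any of the 8 genes, with limma, edgeR or DESeq2. The difference of the fluoxetine effect between HT and WT mice called 0 of the 8 and 0.0392% of all tested genes, with 2 of the 8 at an unadjusted p under 0.05. For lithium it called 0 of the 8 and 0% of all, with 1 of the 8 and 1700 of all at an unadjusted p below 0.05; over all genes DESeq2 called 5. For Slc16a1 the difference of the effect, HT minus WT, was 0.03 ± 0.085 with fluoxetine (95% interval -0.14 to 0.20, adjusted p = 0.92) and -0.13 ± 0.086 with lithium (-0.30 to 0.04, adjusted p = 0.63). Female minus male it was -0.10 ± 0.085 with fluoxetine (-0.27 to 0.07, adjusted p = 0.70) and -0.05 ± 0.086 with lithium (-0.22 to 0.13, adjusted p = 0.97). By sex, 0 of the 8 and 0.425% of all tested genes were past the threshold for fluoxetine, and 0 of the 8 and 0% of all for lithium, with 0 of the 8 at an unadjusted p below 0.05 in either; for lithium 1041 of all genes were, and DESeq2 called 2. Between females and males, averaged over genotype and drug, 0 of the 8 and 0.117% of all tested genes were past it, and none of the 8 had an unadjusted p under 0.05.

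The genes whose log2 values followed Slc16a1 most closely over the 59 libraries were named as a description, among 11860 genes with a mean normalised count of at least 100. They were Cd93 (Pearson r = 0.79), Calcrl (0.77), Ets1 (0.76), Slc39a8 (0.74) and Kdr (0.73), of which Kdr encodes a receptor of vascular endothelial growth factor. The points share the drug, so these values hold the difference between drug and vehicle. With the group means removed they were Ets1 (0.68), P2ry13 (0.57), Kdr (0.57), Opn3 (0.52) and Mrm1 (0.52). Among the 8 genes, the pairs that varied most together within groups were Bsg with Ldhb (0.55), Slc16a7 with Ldha (0.51) and Slc2a3 with Ldha (0.47), and Slc16a3 with Slc16a7 had -0.48. Bsg with Slc16a1 had 0.08.

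Slc16a1 is also a gene of the brain endothelium, and endothelial markers were lower in the same comparisons. Of 22 such markers, 11 fell and 0 rose with fluoxetine, and 11 fell and 1, Ly6c1, rose with lithium, where 6.6% and 5.74% of all tested genes were lower and 6.94% and 7.39% higher. With fluoxetine the largest were the amino acid transporter gene Slc38a5 (-0.52 ± 0.092), Emcn (-0.39 ± 0.067), Flt1 (-0.35 ± 0.046) and Kdr (-0.32 ± 0.074), the last 2 receptors of vascular endothelial growth factor. With lithium they were Slc38a5 (-0.45 ± 0.094), the angiopoietin receptor gene Tek (-0.34 ± 0.055), Kdr (-0.32 ± 0.075) and the cadherin gene Cdh5 (-0.26 ± 0.055). The median of the 22 was -0.18 with fluoxetine and -0.16 with lithium. By stratum the median was -0.38 and -0.33 in WT females (-0.28 and -0.26 without replicate 3 of the WT vehicle females), -0.14 and -0.11 in HT males, -0.10 and -0.09 in WT males, and -0.03 and -0.03 in HT females. In WT females, where the medians of the markers were furthest from 0, Slc16a1 was at -0.59 with fluoxetine and -0.42 with lithium. In HT females, where these medians were nearest to 0, Slc16a1 was at -0.33 with fluoxetine and -0.46 with lithium. A difference between strata was not tested for the markers. The summed level of the markers ranged from 17890 to 29359 in vehicle, 16858 to 21139 in fluoxetine and 17159 to 21942 in lithium libraries, and the least abundant, Slc38a5, had at least 67.5 in every library. Without replicate 3 of the WT vehicle females and replicate 2 of the WT vehicle males, 11 fell with fluoxetine and 10 with lithium, and 2 rose with lithium. The part of these cells in the difference of Slc16a1 was not tested.

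**Figure D5:**
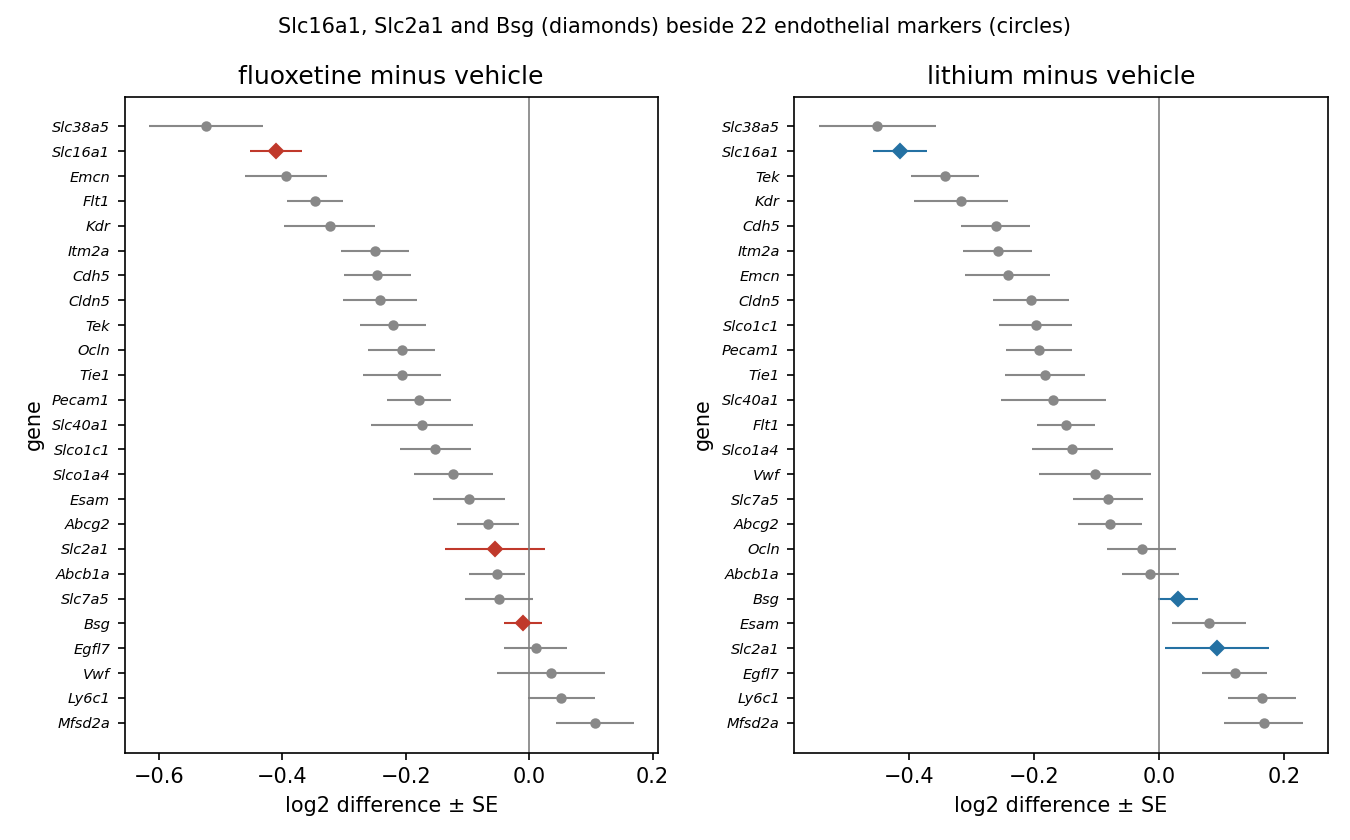
Log2 difference from vehicle (± SE) of 22 endothelial marker genes (circles) with Slc16a1, Slc2a1 and Bsg (diamonds), ordered by value, with fluoxetine (left) and lithium (right). The markers ran from -0.52 to 0.11 with fluoxetine and from -0.45 to 0.17 with lithium, and Slc16a1 was at -0.41 with each drug.

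The other cells that are known to hold Slc16a1 or its relatives did not move as one list. Of all tested genes 6.6% fell and 6.94% rose with fluoxetine, and 5.74% fell and 7.39% rose with lithium. A count of 1 in a list of 10 or 12 lies near these shares. Of 12 astrocyte markers, 2 rose and 4 fell with fluoxetine and 1 rose and 4 fell with lithium, among them the water channel gene Aqp4 (-0.31 ± 0.065 and -0.42 ± 0.066) and the connexin gene Gja1 (-0.18 ± 0.041 and -0.21 ± 0.042), which fell with both. Gjb6, another connexin gene, rose with both (0.17 ± 0.049 and 0.30 ± 0.050). Of 12 oligodendrocyte and 12 cortical neuron markers, 0 rose or fell with either drug, and over the 11 alternatives at most 1 neuron marker fell, with fluoxetine. Of 10 pericyte and smooth muscle markers, Rgs5 fell with both drugs (-0.33 ± 0.058 and -0.27 ± 0.059), and Cspg4 (0.23 ± 0.071) and Pdgfrb (0.18 ± 0.057) rose with fluoxetine. Of 10 microglial markers 1 fell with fluoxetine, and 2 fell and 1 rose with lithium; P2ry12, a purine receptor gene, was the largest in both (-0.21 ± 0.066 and -0.38 ± 0.067). Of 6 markers of meningeal fibroblasts 3 fell with lithium (Ogn -0.39 ± 0.12, Dcn -0.38 ± 0.11 and Col1a1 -0.35 ± 0.12) and 0 with fluoxetine. Of 6 erythrocyte and 5 measured choroid plexus markers, 0 rose or fell. Without replicate 3 of the WT vehicle females, 1 neuron marker fell with fluoxetine, and 3 microglial and 2 meningeal markers fell with lithium. The other counts of these lists stayed the same.

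Around the 8 genes, the enzymes of glycolysis were the list with the most members higher. Of 15 glycolytic genes, 5 rose with fluoxetine and 8 with lithium, and 0 fell, with medians of 0.09 and 0.13, where 6.94% and 7.39% of all tested genes rose. By stratum the median was 0.10 and 0.23 in HT females, 0.10 and 0.12 in HT males, 0.12 and 0.17 in WT males, and 0.06 and -0.01 in WT females, so that it was just below 0 with lithium in WT females. With fluoxetine the largest were the aldolase gene Aldoa (0.18 ± 0.045), Pfkm (0.13 ± 0.029), the phosphofructokinase gene of muscle, Gpi1 (0.13 ± 0.032), which encodes glucose phosphate isomerase, and the pyruvate kinase gene Pkm (0.12 ± 0.042). With lithium they were Aldoa (0.20 ± 0.045), the astrocytic aldolase gene Aldoc (0.20 ± 0.037), Pkm (0.17 ± 0.043) and Gpi1 (0.16 ± 0.032). Aldoc was lower with fluoxetine than with lithium (-0.15 ± 0.037; limma, adjusted p = 0.0033), the same direction as Ldhb. Over the alternatives the count for fluoxetine ran from 3 to 6 and that for lithium from 7 to 8; without replicate 3 of the WT vehicle females alone they were 6 and 9.

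Among 11 other measured genes of monocarboxylate transport, Slc16a4, a member of the same family, fell with fluoxetine (-0.53 ± 0.098), and Emb, which encodes embigin, the partner of MCT2, rose with lithium (0.17 ± 0.053). Both were lower with fluoxetine than with lithium (Emb -0.25 ± 0.053, adjusted p = 0.00070; Slc16a4 -0.33 ± 0.099, adjusted p = 0.019; limma). Of 10 other genes of hexose transport, 3 rose with fluoxetine, namely Slc2a4 (0.52 ± 0.13), the insulin-responsive glucose transporter gene, Slc2a8 (0.18 ± 0.057) and Slc45a1 (0.15 ± 0.043). With lithium Slc2a6 rose (0.26 ± 0.057) and Slc2a10 fell (-0.30 ± 0.10). Txnip, which restrains glucose uptake, was higher with fluoxetine than with lithium (0.26 ± 0.068, adjusted p = 0.0073), as was Slc2a10 (0.37 ± 0.10, adjusted p = 0.0089), and Slc2a6 was lower (-0.20 ± 0.057, adjusted p = 0.013; limma).

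Of 15 genes of pyruvate entry into mitochondria and its control, 2 fell with fluoxetine, the pyruvate dehydrogenase phosphatase gene Pdp1 (-0.21 ± 0.056) and the mitochondrial pyruvate carrier gene Mpc1 (-0.15 ± 0.036). With lithium 2 rose, the D-lactate dehydrogenase gene Ldhd (0.23 ± 0.054) and the pyruvate carboxylase gene Pcx (0.17 ± 0.053). Of all tested genes 6.6% fell with fluoxetine and 7.39% rose with lithium. Between the drugs 13.9% of all were past the threshold, with 7.74% lower with fluoxetine. The counts in this paragraph are not read as a result about the lists. Between the drugs, Pdp1 (-0.30 ± 0.057, adjusted p = 0.00016), Pcx (-0.19 ± 0.053, adjusted p = 0.0097) and Ldhd (-0.17 ± 0.054, adjusted p = 0.025) were lower with fluoxetine and Pdp2 was higher (0.14 ± 0.046, adjusted p = 0.029; limma). Of 7 genes of ketone body use, Aacs, whose enzyme activates acetoacetate in the cytosol, fell with fluoxetine (-0.16 ± 0.056) and 0 rose or fell with lithium. Aacs was lower with fluoxetine than with lithium (-0.20 ± 0.057; limma, adjusted p = 0.012).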

How the data were processed

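RNA of mouse prefrontal cortex was prepared with a TruSeq Stranded mRNA kit, per the labels. The values the authors deposited are a signal, namely reads scaled by 1 size factor for each library. The submitters' processing notes name Salmon 0.11.2, R 3.6.0, DESeq2 1.19.11 and GRCm38, without role or order; the annotation, the strand setting and the rule for the genes kept were not given in the sources used here. Dividing by the step between the values of a library gave whole reads within 0.01 for 100% of them, from 24.47 M to 36.32 M per library. Without molecular identifiers, PCR copies are counted as reads.

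Genes with a normalised count of at least 10 in at least 5 libraries were tested, 17875 of 18088, and 213 were left out. limma 3.58.1 (R 4.3.3), with its trend and robust options, was fitted once to log2(normalised count + 1) of all 59 libraries with 1 mean per group. Tests were two-sided, the Benjamini-Hochberg adjustment ran over all tested genes of a comparison, and a gene is said to have risen or fallen at an adjusted p under 0.05. Fold changes on this scale understate those of low genes. Errors beside log2 differences are standard errors. The step was tested on simulated data. edgeR 4.0.16 and DESeq2 1.42.0 were run on the recovered reads as alternatives, next to other pseudocounts, filters and scaling, GC and length trends, subsets of groups and libraries left out. The lists under these alternatives, and the values by genotype and sex without replicate 3 of the WT vehicle females, were added after the data were seen.

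Symbols and positions came from GENCODE M21 (GRCm38), matched for 18077 genes; exon length is the union of annotated exons. For a symbol on more than 1 identifier, the more abundant was used. Promoter windows came from RefSeq (GRCm38.p6). The members and all lists were chosen with earlier results of these data known. The 8 members are all described; from each list up to 4 genes past the threshold are named, by p-value or, for drug against vehicle, by size; and the 5 genes most like Slc16a1. Other likeness and list members were counted only. Libraries with the same replicate number in different groups did not vary together, so the numbers were not used as pairs.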

Additional observations from a re-analysis of the deposited data

Results flagged for a closer look

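Of 96 sets of 1 gene in 1 group, 8 had a library far from the others, where chance gives about 1 in 20. Slc16a1 was 2371 in HT vehicle male replicate 2, against 1705 to 1868 in the others. Slc16a7 was 2539 in WT lithium female replicate 3, against 1967 to 2133. Slc2a1 was 5139 in the library labelled replicate 3 of the WT vehicle females, against 3095 to 3592. It was 4706 in WT fluoxetine female replicate 3, against 3747 to 3973, and 2978 in WT lithium female replicate 5, against 3772 to 4005. Slc2a3 was 6062 in HT lithium female replicate 1, against 6330 to 6374, and 6733 in HT lithium male replicate 3, against 6192 to 6329. Ldhb was 12936 in HT vehicle female replicate 5, against 10762 to 11088.

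For some genes every library of a group lay on one side of the mean of its comparison group in one stratum and on the other side in another stratum, and the difference between those strata was not tested. The log2 difference of Slc16a1 between HT and WT mice was 0.24 in fluoxetine females, -0.18 in fluoxetine males and -0.20 in lithium males. That of Slc16a3 was 0.42 in lithium females and -0.53 in fluoxetine females. The log2 difference of Slc16a7 between lithium and vehicle was 0.27 in WT females and -0.14 in HT males. Without the library labelled replicate 3 of the WT vehicle females (1073) it was 0.09 in WT females, and 4 of the 5 lithium libraries lay above the vehicle mean, so that they no longer all lay on one side. That of Bsg was 0.19 in HT females, 0.06 in WT males and -0.18 in WT females; averaged over the sexes, the lithium effect on Bsg differed between HT and WT mice by 0.18 ± 0.063 (limma, adjusted p = 0.42).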

How the results depend on the processing

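No value past the threshold changed sign under the 11 alternatives or without any 1 of the 59 libraries; values near 0, such as those of Bsg, Slc2a3 and Ldhb for fluoxetine against vehicle, took either sign. Slc16a1 differed from vehicle by -0.41 to -0.38 with fluoxetine and by -0.42 to -0.37 with lithium over the alternatives, and by -0.42 to -0.39 and -0.43 to -0.39 without single libraries. Ldhb differed between fluoxetine and lithium by -0.15 to -0.11 (adjusted p from 0.00021 to 0.012) and without single libraries by -0.13 to -0.10, with an adjusted p of up to 0.025. Bsg in vehicle females ranged from -0.26 to -0.11, and without single libraries from -0.32 to -0.21. The number of members called for HT against WT vehicle females was 0 without replicate 3 of the WT vehicle females and replicate 2 of the WT vehicle males, 0 with GC and length trends removed, 0 in the groups compared alone, and 0 to 2 without single libraries (2 without replicate 5 of either genotype). In fluoxetine females it was 1 in the groups compared alone and 0 to 1 without single libraries, and for fluoxetine against lithium 1 to 2 without single libraries, both upper values without replicate 5 of the HT lithium males. For fluoxetine against vehicle it was 2 with the filter of 50, TMM scaling, edgeR, DESeq2 and without the pair of WT libraries named above. It was 1 to 2 without single libraries (2 in 15 of 59). Slc16a7 was the gene added to Slc16a1 in each of these cases. For lithium against vehicle it was 2 to 3, with 3 without replicate 5 of the WT vehicle females. The causes were not tested.

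With the replicate number as a block, Bsg stayed at -0.25 (adjusted p = 0.015) and Ldhb at -0.11 (adjusted p = 0.012). Libraries of different groups had a mean correlation of residuals of -0.0112 with the same number and 0.0028 with different numbers. Counts of all genes called that moved by over 1.5 times over the alternatives were those for HT against WT in vehicle females (1109; 0 to 1701, and 20 to 2151 without single libraries), in fluoxetine females (348; 72 to 620, and 83 to 668), in fluoxetine males (69; 0 to 545, and 1 to 413) and on average (64; 60 to 104, and 45 to 85), for the fluoxetine effect by genotype (7; 1 to 116, and 0 to 207) and by sex (76; 10 to 178, and 36 to 121), and for females against males (21; 19 to 58, and 19 to 38). In vehicle males, lithium females and lithium males, where 1 gene was called, it ran from 0 to 2, 1 to 8 and 0 to 3. Litter, dam and dose, and the counting of near-identical copies, limit what the values show.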
